A study of Mus musculus with 9 samples.

Results

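Ephrins, semaphorins, Slits and their receptors are the guidance genes described here, in mouse embryonic stem (ES) cells during the early days of differentiation. Members are the genes whose symbol in the array's annotation names an ephrin, an Eph receptor, a semaphorin of class 3 to 6, a plexin, a neuropilin, a Slit, a Robo or Flt1. A gene's value is that of the probe set with the highest mean over 9 arrays among those that name it alone, and genes under a signal of 50 on all arrays but 1 were set aside. Of the 60 genes with such a probe set, 30 passed, among 8716 genes that passed in the whole series. The 60 include Plxna4os1, an antisense transcript that shares only the start of its name with the plexins and did not pass. Ephb2 was not analysed here. The label holds for these data in that all the classes of ligand and receptor had at least 1 member that passed.

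Guidance cues are ligands that steer migrating cells and growing axons, and the same molecules shape blood vessels and sort cells into layers during gastrulation. Ephrins stay on the cell surface, the A type on a lipid anchor and the B type on a transmembrane stretch, and touch Eph receptor tyrosine kinases on the neighbouring cell. Class 3 semaphorins are secreted and mostly bind a neuropilin, which passes the signal to a plexin, while Sema3e can bind plexin D1 directly. Neuropilins also hold vascular endothelial growth factor (VEGF) for its receptors, of which Flt1 (VEGF receptor 1) binds the ligand tightly and signals weakly. Slits are secreted repellents read by Robo receptors.

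The study used 9 arrays of total RNA, each a group of its own with no replicate. One array held undifferentiated ES cells, kept with leukemia inhibitory factor and doxycycline at 1 µg/ml. The other 8 held cells after 0.5, 1.5, 2.5 and 3.5 days of differentiation (D0.5 to D3.5) in serum medium without that factor, with 1 µg/ml doxycycline (Dox+) or without it (Dox-). By the series' design, doxycycline governs an always-active protein kinase A (PKA) in these cells, and the comparison of media asks how PKA activity bears on differentiation. The labels do not say which medium switches the kinase on, name neither the line nor its number of clones, and give no promoter for the kinase, so the arms are named by medium. Days stood in for repeats of the media and media for repeats of the days, so p-values measure only the spread between these arrays.

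Each array's signals average 100 after trimming. Differences were taken after adding 16 to the signals, as log2(signal + 16), and so come out too small for dim genes. Between 41.6% and 44.2% of all genes reached a signal of 50 on an array. Probe sets at the 3' and 5' ends of Actb, whose ratio grows as RNA degrades, gave ratios from 1.6 to 1.98, and on D3.5 these were 1.94 for Dox+ and 1.63 for Dox-. The 6 pluripotency markers chosen to check the label summed to 13421 in undifferentiated cells, and by D3.5 to 8442 under Dox+ and 2396 under Dox-. Of 6 markers of endothelium 0 passed the signal filter, and Pecam1, Cdh5, Tie1 and Emcn never reached 50. Of 6 neuronal markers 4 passed, and the summed signal of all 6 was highest in undifferentiated cells, at 1940. Stmn2 gave 1808 of that sum, while Elavl3, Map2, Snap25 and Dcx were highest on later arrays.

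The DNA just before the start of 5 members is shown because 4 of them, Nrp1, Nrp2, Plxnd1 and Flt1, were the members already 2-fold or more higher in Dox- on D1.5, and because Epha2 and Flt1 were the only members with a full cyclic AMP response element (CRE), the DNA letters bound by CREB, a factor that PKA phosphorylates. Each line gives the 250 bases upstream of the RefSeq start on the gene's own strand, from the RefSeq promoter table of build GRCm38.p6. Capitals mark the letters TGACGTCA (full CRE), TGACG (its shorter form, which also lies inside the full one) and GGAAG (the core bound by ETS factors), on either strand. The Nrp1 window is chr8:128358823-128359072 on the plus strand, that of Nrp2 chr1:62703067-62703316 on the plus strand, that of Plxnd1 chr6:115995006-115995255 on the minus strand, that of Flt1 chr5:147726012-147726261 on the minus strand and that of Epha2 chr4:141300971-141301220 on the plus strand.
Nrp1: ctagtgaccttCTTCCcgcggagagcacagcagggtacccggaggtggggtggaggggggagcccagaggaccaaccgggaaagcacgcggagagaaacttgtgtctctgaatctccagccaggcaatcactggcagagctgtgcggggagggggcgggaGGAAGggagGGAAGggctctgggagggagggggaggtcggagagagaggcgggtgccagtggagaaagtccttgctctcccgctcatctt
Nrp2: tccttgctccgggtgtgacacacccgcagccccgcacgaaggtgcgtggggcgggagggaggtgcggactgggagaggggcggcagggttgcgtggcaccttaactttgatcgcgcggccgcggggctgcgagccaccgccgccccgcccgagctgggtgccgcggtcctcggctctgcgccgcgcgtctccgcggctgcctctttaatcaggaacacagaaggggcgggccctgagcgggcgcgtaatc
Plxnd1: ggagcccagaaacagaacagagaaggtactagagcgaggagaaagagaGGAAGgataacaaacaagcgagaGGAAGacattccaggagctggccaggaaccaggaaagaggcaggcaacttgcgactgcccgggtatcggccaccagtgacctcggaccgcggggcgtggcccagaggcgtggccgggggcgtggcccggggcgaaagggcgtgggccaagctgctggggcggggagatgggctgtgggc
Flt1: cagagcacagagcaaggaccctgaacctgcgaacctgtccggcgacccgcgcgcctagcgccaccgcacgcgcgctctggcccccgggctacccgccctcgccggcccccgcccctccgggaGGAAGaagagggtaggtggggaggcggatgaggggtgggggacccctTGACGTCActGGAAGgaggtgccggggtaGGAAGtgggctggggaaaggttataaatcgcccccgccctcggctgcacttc
Epha2: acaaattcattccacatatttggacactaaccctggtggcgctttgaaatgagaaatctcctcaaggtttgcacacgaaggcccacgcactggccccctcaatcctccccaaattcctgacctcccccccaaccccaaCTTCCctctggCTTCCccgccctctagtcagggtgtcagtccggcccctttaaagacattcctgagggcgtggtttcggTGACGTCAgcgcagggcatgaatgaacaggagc

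The full CRE of Flt1 lies 81 to 74 bases before the start, with GGAAG at 71 to 67 bases beside it and again at 128 to 124 and 52 to 48 bases. In Epha2 the full CRE lies 33 to 26 bases before the start, and 2 GGAAG cores lie further upstream on the opposite strand. The full CRE occurs in 1.55% of the 32851 promoter windows of this length in the table and in 2 of the 28 members with an entry. The shorter TGACG occurs in 17.8% of all windows and in 6 of 28 members (Efnb1, Efnb2, Epha2, Epha4, Ephb3 and Flt1), and GGAAG in 64.1% of all windows and in 20 of 28 members. AGATAA, which GATA factors bind, occurs in 9.99% of all windows and in 1 member, Efna4. Nrp1 and Plxnd1 hold GGAAG but neither form of the CRE, and Nrp2 holds none of these letters. Motifs were chosen after the values were seen, and a match is a description of letters and not of binding. Several members have more than 1 entry, with 39 windows for the 28 genes, and all were searched. The counts are of genes and the percentages of windows, so the 2 are not on the same scale. Plxna1 and Sema6a have no entry in the table.

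Both neuropilin genes were higher in Dox- from D1.5 on, and by D3.5 Nrp1 had the largest media difference of the 30 guidance genes. Undifferentiated cells gave a signal of 6.9 for Nrp1. In order of day, Dox+ arrays gave 4.0, 5.0, 5.7 and 17.3 and Dox- arrays 9.1, 27.9, 163.8 and 1052. The arms were both dim on D0.5, and from D1.5 on every Dox- array lay above every Dox+ array. Fitted over the last 2 days together, Nrp1 was higher in Dox- by 4.03 ± 0.51 (SE, 2 days; limma adjusted p = 0.00772 over all 8716 genes). Here and in every late result, the 2 days are those of the difference. The SE also takes its spread from the D0.5 and D1.5 pairs, whose media differences count as spread. The 3 other probe sets of Nrp1 went the same way, with mean differences of 3.45, 3.10 and 2.24 over D2.5 and D3.5.

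Nrp2, which encodes the second neuropilin and serves class 3 semaphorins and VEGF-C, read 13.4 in undifferentiated cells. Its signals were 17.8, 5.8, 10.5 and 56.0 in Dox+ and 17.8, 52.8, 237 and 608 in Dox-. The Dox+ array of D3.5 thus stood close to the Dox- array of D1.5, and both later Dox- arrays lay above all Dox+ arrays. The fitted late difference was 3.19 ± 0.47 (SE, 2 days; limma adjusted p = 0.0118), and 3.13, 1.81 and 1.76 on the other probe sets. Without the D3.5 pair it just missed the threshold (adjusted p = 0.0583), and over all 12 alternatives the adjusted p ran from 0.000709 to that value. In RNA from whole cultures, more cells of a type and more RNA per cell cannot be told apart.

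Plxnd1, the plexin of endothelial cells and receptor of Sema3e, was higher in Dox- from D1.5, as both neuropilin genes were. Unlike them, it did not pass the late test. It read 8.3 in undifferentiated cells, 1.4, 5.1, 12.3 and 18.7 in Dox+ and 5.5, 71.9, 94.3 and 80.3 in Dox-. From D1.5 on the single-day differences were 2.06, 1.96 and 1.47, so every Dox- array from D1.5 on lay above all Dox+ arrays. The late difference was 1.72 ± 0.60 (SE, 2 days; limma adjusted p = 0.139). That fit counts the D1.5 difference as spread, and without the D1.5 pair the difference passed, at an adjusted p of 0.0108.

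Flt1 followed a course like that of Plxnd1 at first and then lost most of its media difference. It read 1.4 in undifferentiated cells, 2.6, 8.0, 13.8 and 46.1 in Dox+ and 0.9, 45.7, 90.4 and 78.9 in Dox-. The media differed by 1.36, then 1.84 and at last 0.61, when the Dox+ array had come to the level of the Dox- array of D1.5. The late difference did not pass (1.22 ± 0.48, SE, 2 days; limma adjusted p = 0.177), and over both media Flt1 rose from D0.5 to D3.5, by 2.11 ± 0.50 (SE, 2 media; adjusted p = 0.0319). Its 3 dimmer probe sets gave late differences of 0.84, 1.11 and 0.33.

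**Figure D1:**
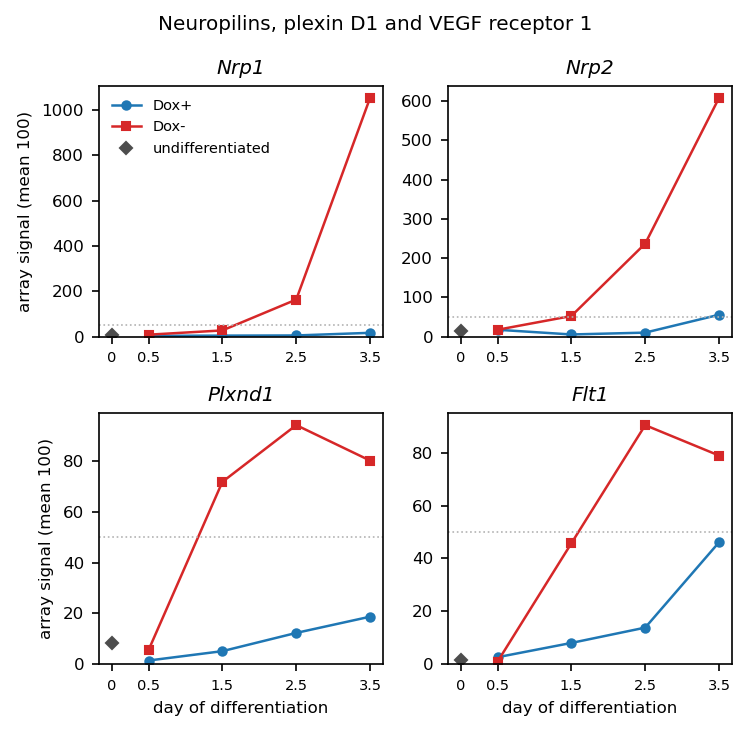
Array signal (scaled to a mean of 100, axis from 0) against day of differentiation for Nrp1, Nrp2, Plxnd1 and Flt1, with 1 array per point, blue circles for Dox+, red squares for Dox-, a grey diamond for undifferentiated cells (at 0) and a dotted line at the filter value of 50. In Dox- Nrp1 and Nrp2 climb to 1052 and 608 on D3.5, while Plxnd1 and Flt1 are highest on D2.5, at 94.3 and 90.4.

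Nrp1, Plxnd1 and Flt1 reached a signal of 50 on Dox- arrays alone, as did Efna3, Sema5a and Sema6d. These 6 members passed the filter only through the arm where they were high. The direction of their difference was thus partly set by the filter. Nrp2, Efnb1, Plxna2 and Efna4 reached 50 on 1 Dox+ array each and not in undifferentiated cells. They too would have missed the filter without their Dox- arrays, so the same limit holds for them. Counts of higher members below are therefore no support for a shared direction. Markers of other cell types also differed between the media. The summed signal of 6 genes of vascular and blood precursors, Kdr among them, lay between 92.3 and 133.9 on the Dox+ arrays and between 120.3 and 1077 on the Dox- arrays, and that of 6 endothelial genes between 32.8 and 80.5 and between 78.5 and 159. Streak and nascent mesoderm genes summed to 69.2 to 1824 in Dox+ and 95.9 to 5874 in Dox-. On D3.5 Eomes was lower in Dox- (540 against 911) and the others on that list higher. Extraembryonic endoderm genes summed to 92.7 to 161 and 96.4 to 627, and Gata6 gave 335 on D3.5 in Dox-. On D2.5 Amn was lower in Dox- (27.1 against 59.7) and the others on that list higher. Neural crest genes summed to 145 to 216 in Dox+ and 148 to 429 in Dox-, of which Ets1 gave 350 on D3.5 in Dox-, while Foxd3 was lower there (6.7 against 112 in Dox+) and Sox10, Tfap2a, Sox9 and Pax3 never reached 50. Fibroblast genes summed to 40.8 to 199 and 37.0 to 346, lower in Dox- on the 3 earlier days, and on D3.5 Col1a1 and Col1a2 were higher in Dox- while Dcn and Thy1 were lower. Neuronal genes summed to 605 to 1256 and 459 to 1135, lower in Dox- on all 4 days, with Stmn2 making up most of each sum. On D1.5 Map2 (70.6 against 51.8), Snap25 (46.4 against 30.6) and the dim Dcx were higher in Dox-, and Stmn2, Tubb3 and Elavl3 lower. No marker on these lists was at 0 on any array. The part of such cells in the receptor values was not tested.

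By Pearson's r over the 9 arrays, the 5 genes most like Nrp1 among those tested were Isl1 (0.994), Rapgef2 (0.989), Adamts20 (0.987), Prdm6 (0.986) and Map3k3 (0.984). Those most like Plxnd1 were Inka1 (0.978), Fli1 (0.973), Tnfaip2 (0.968), Arfgap2 (0.967) and Ecscr (0.963). Among guidance genes, Nrp2 had an r of 0.971 with Nrp1 and of 0.858 with Plxnd1, and Flt1 and Efna4 each had 0.925 with Plxnd1. All these genes share the same 9 arrays, and the coefficients describe them without a test.

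Both class 3 semaphorin genes that passed the filter, Sema3c and Sema3e, fell in Dox- relative to Dox+ on D2.5 and D3.5, in the same arrays in which neuropilins rose. Sema3c encodes a secreted ligand of neuropilins and plexins that is needed for the cardiac outflow tract. Its signal was 3.4 in undifferentiated cells, 13.6, 48.8, 114 and 139 in Dox+, and 6.7, 84.0, 32.0 and 9.7 in Dox-. In Dox+ it climbed through all days, while in Dox- it was highest on D1.5, at 84.0, and back near its start on D3.5. The late difference was -2.02 ± 0.35 (SE, 2 days; limma adjusted p = 0.0187), and it was lost without the D0.5 pair (adjusted p = 0.0533) or the D3.5 pair (0.111). The second, dim probe set, at most 19.7, gave -0.46.

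Sema3e, the ligand that acts through plexin D1, read 39.3 in undifferentiated cells, 188.5, 205, 212 and 319 in Dox+, and 177, 183, 119.5 and 152 in Dox-. Both arms were well above undifferentiated cells by D0.5, and the late Dox- arrays lay below every Dox+ array. The late difference was -0.87 ± 0.14 (SE, 2 days; limma adjusted p = 0.0148), with -0.53, -0.99 and -0.41 on the other probe sets. This call too was lost without the D0.5 pair (adjusted p = 0.0587) or the D3.5 pair (0.0996). Beside it, Plxnd1 was higher in Dox- on the same days, by 1.96 and 1.47. Of the other 5 class 3 genes on the array none passed the filter, and the brightest single value was that of Sema3f, 51.4 in Dox- on D3.5.

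Class 4 semaphorins, which are membrane-bound, split by the course of differentiation more than by medium. Sema4a read 171 in undifferentiated cells, 69.8, 70.8, 66.0 and 22.5 in Dox+, and 84.7, 49.0, 24.2 and 4.4 in Dox-. It fell from D0.5 to D3.5 by 1.73 ± 0.35 on the log2 scale (SE, 2 media; limma adjusted p = 0.0208), and the Dox- array was lower from D1.5 on. Its late media difference of -0.97 ± 0.23 passed narrowly (SE, 2 days; limma adjusted p = 0.0479) and was lost under 8 of the 11 alternatives that could be computed, with adjusted p between 0.0307 and 0.163 over all of them.

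Sema4b fell in both arms. It read 173 in undifferentiated cells, 161, 126, 84.7 and 66.8 in Dox+, and 140.1, 76.6, 61.3 and 35.1 in Dox-. Every Dox- array lay below the Dox+ array of its day, but the late media difference did not pass (-0.54 ± 0.23, SE, 2 days; limma adjusted p = 0.207). The change from D0.5 to D3.5 was -1.35 ± 0.19 (SE, 2 media; adjusted p = 0.00827).

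Sema4c, a ligand of plexin B2, went the other way, and so did Plxnb2. Sema4c read 45.5 in undifferentiated cells, 109.8, 191, 216.5 and 205.5 in Dox+ and 102, 252, 203 and 232 in Dox-, and it rose by 0.94 ± 0.17 from D0.5 to D3.5 (SE, 2 media; limma adjusted p = 0.0147). Plxnb2 read 40.2, then 55.3, 63.5, 91.4 and 95.7 in Dox+ and 44.3, 59.1, 79.8 and 104 in Dox-, and rose by 0.82 ± 0.18 (SE, 2 media; adjusted p = 0.0248), a call lost without the D1.5 pair (0.0510). The arms of both genes overlapped on all late days, with late media differences of 0.04 ± 0.17 and -0.03 ± 0.18. Sema4d, the ligand of plexin B1, ranged from 41.0 to 99.7 and passed neither test.

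Of the class 5 and 6 semaphorins, Sema6d peaked sharply on a single Dox- array. This transmembrane ligand, which acts through plexin A1 in the heart, read 3.2 in undifferentiated cells, 4.6, 7.8, 16 and 45.8 in Dox+ and 4.1, 31.5, 199 and 76.1 in Dox-. The media differed by 2.75 on D2.5 but by 0.58 a day later, and the late difference did not pass (1.66 ± 0.53, SE, 2 days; limma adjusted p = 0.112), and passed without the D3.5 pair (adjusted p = 0.0357). Its 3 other probe sets stayed under 12 on all arrays.

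Sema5a, a transmembrane semaphorin with thrombospondin repeats, read 0.3 in undifferentiated cells, 9.8, 43.6, 35.2 and 43.3 in Dox+ and 7.7, 23.2, 53.0 and 75.3 in Dox-. It rose from D0.5 to D3.5 by 1.57 ± 0.36 (SE, 2 media; limma adjusted p = 0.0294), and without the D2.5 pair the adjusted p was 0.0526. The arms did not overlap on D2.5 and D3.5, yet the late difference of 0.53 ± 0.26 did not pass. Sema6a, a ligand of plexins A2 and A4, ranged from 0.7 to 52.5 and was lower in Dox- on D3.5, at 16.9 against 49.9, with no test passed.

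Slit2, the only Slit gene that passed the filter, rose in both arms and was highest in Dox- on D2.5. It read 17.3 in undifferentiated cells, 20.6, 34.1, 50.2 and 103 in Dox+ and 35.2, 59.9, 198 and 123 in Dox-. Each Dox- array lay above the Dox+ array of its day, and by D3.5 the arms had come within 0.23. The rise from D0.5 to D3.5 was 1.57 ± 0.36 (SE, 2 media; limma adjusted p = 0.0294), while the late media difference of 0.96 ± 0.38 did not pass (adjusted p = 0.176). The rise of Slit2 was lost under 4 of 10 alternatives (adjusted p from 0.0155 to 0.0845 over all), and that of Flt1 under 2 of 9 (0.0263 to 0.0773), in both cases also without the D1.5 pair (0.0505). Its receptor gene Robo1 was high on the same array, at 248 in Dox- against 93.7 in Dox+ on D2.5, and lay between 52.0 and 121.8 on the other 8. No test of Robo1 passed, and Robo2, Robo3 and Robo4 did not reach 50 on any array, Robo4 being highest in undifferentiated cells, at 44.9.

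**Figure D2:**
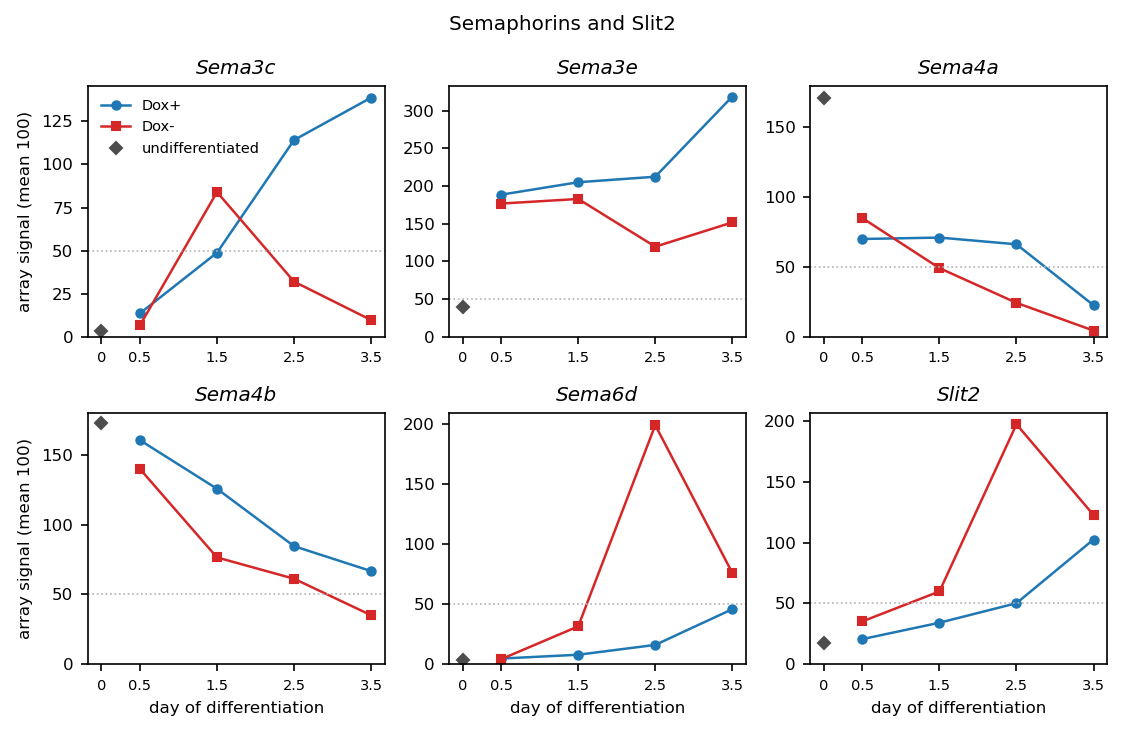
Array signal (scaled to a mean of 100, axis from 0) against day of differentiation for 5 semaphorin genes and Slit2, with 1 array per point, blue circles for Dox+, red squares for Dox-, a grey diamond for undifferentiated cells (at 0) and a dotted line at 50. Sema3c climbs to 139 in Dox+ and returns to 9.7 in Dox-, Sema4a and Sema4b fall in both arms, and Sema6d and Slit2 are highest in Dox- on D2.5, at 199 and 198.

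The B ephrins moved apart. Efnb1, a ligand of EphB receptors that sorts cells at boundaries, rose late in Dox-, with 41.7 in undifferentiated cells, 29.2, 37.5, 38.5 and 53.8 in Dox+ and 35.5, 40.5, 72.9 and 142 in Dox-. Only the Dox- arrays of D2.5 and D3.5 lay above all Dox+ arrays. The late difference was 0.94 ± 0.20 (SE, 2 days; limma adjusted p = 0.0383), with 1.32 and 0.57 on the other probe sets, and it was lost under 4 of the 11 alternatives that could be computed, with adjusted p from 0.0165 to 0.253. Over both media Efnb1 rose from D0.5 to D3.5 by 1.12 ± 0.31 (SE, 2 media; adjusted p = 0.0494), a call that 7 of 9 alternatives lost, with adjusted p from 0.0433 to 0.107.

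Efnb2, the ephrin of arteries and of the somite border, was already far above its undifferentiated level on D0.5 in both media. It read 98.1 in undifferentiated cells, 437, 989, 629.8 and 645.5 in Dox+ and 454, 676, 455 and 325 in Dox-. From D1.5 on, each Dox- array was lower than the Dox+ array of its day. The late difference of -0.71 ± 0.20 did not pass (SE, 2 days; limma adjusted p = 0.0843), and passed when the D1.5 pair was left out (adjusted p = 0.0389). A second probe set gave -0.43, and dim ones gave 0.02 and 0.08. With the mean of all probe sets the late difference was -0.26 (limma adjusted p = 0.255). Ephb4, the gene of the main receptor for Efnb2, missed the signal filter and read at most 49.3. Efnb3 read 198 in Dox- on D3.5 and at most 35.7 elsewhere, so it reached 50 on 1 array only and was not tested.

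Among A ephrins, Efna5 had the clearest change with time. It read 6.2 in undifferentiated cells, 4.9, 61.2, 89.6 and 130.5 in Dox+ and 15.6, 80.6, 101.8 and 162 in Dox-. From D0.5 on both arms rose at each step, and the rise from D0.5 to D3.5 was 2.65 ± 0.19 (SE, 2 media; limma adjusted p = 0.00292), with adjusted p of at most 0.00804 under all 10 alternatives. The late test of the media did not call it (0.22 ± 0.24, adjusted p = 0.623), although the Dox- array was the higher one on all 4 days. Efna2, Efna3 and Efna4 ranged over the 9 arrays from 43.1 to 127, from 10.2 to 88.7 and from 30.5 to 95.1. Each was higher in Dox- on both late days, with fitted differences of 0.56 ± 0.17, 0.84 ± 0.27 and 0.71 ± 0.20, none of which passed (limma adjusted p = 0.0966, 0.115 and 0.0834). Efna1 reached 155.5 in Dox- on D3.5 and at most 41.0 on any other array.

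The 4 EphA receptor genes that passed the filter had their highest media differences on D2.5 and parted ways a day later. Epha1 read 9.0 in undifferentiated cells, 18.1, 74.4, 82.4 and 203 in Dox+ and 19.8, 119, 309 and 56.7 in Dox-. Its media difference turned from 1.73 on D2.5 to -1.59 a day later, and the late fit over both days gave 0.07 ± 0.66. Without the D3.5 pair that fit called Epha1 higher in Dox-, and without the D2.5 pair it called it lower. Its highest Dox+ value came on D3.5, a day after its highest Dox- value. The other 2 probe sets of Epha1 were dim. They gave media differences of 0.02 and -0.05 on D2.5 and of -0.50 and -0.08 on D3.5.

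Epha2, a receptor gene active in ES cells and in the streak, read 79.9 in undifferentiated cells, 133, 68.5, 22.4 and 59.7 in Dox+, and 133.5, 47.1, 85.6 and 25.1 in Dox-. Here too Dox- was higher on D2.5, by 1.40, and lower on D3.5, by 0.88 in size. The dip of the Dox+ array fell on D2.5, with a rise after it. The fitted change from D0.5 to D3.5 was -1.42 ± 0.51 and did not pass (SE, 2 media; limma adjusted p = 0.0976).

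Epha4, a receptor of both ephrin types that marks segment borders, had the lowest D0.5 value relative to undifferentiated cells of the 30 members in Dox+, at -1.78 on the log2 scale. It read 312 in undifferentiated cells, 79.3, 26.1, 31.1 and 60.3 in Dox+ and 106, 46.3, 169 and 102 in Dox-. Every Dox- array was higher than the Dox+ array of its day, with the widest gap on D2.5, at 1.98. The late difference did not pass (1.30 ± 0.34, SE, 2 days; limma adjusted p = 0.0705), and passed without the D3.5 pair (adjusted p = 0.0325). The other 4 probe sets gave 1.05, 1.19, 0.79 and 0.22.

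Epha7 ranged from 28.3 to 77.5 and changed sign between days, with media differences of -0.78, 0.76 and -0.87 from D1.5 on. Ephb3 ranged from 42.4 to 124, its highest value being that of Dox- on D3.5, where it differed by 1.26. Neither passed a test. The remaining 8 Eph receptor genes on the array missed the signal filter, and none of them reached 50 on any array.

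Plxna2, the receptor of class 6 semaphorins and of class 3 semaphorins with neuropilins, had the largest media difference of any guidance gene on D2.5, at 3.30. It read 29.5 in undifferentiated cells, 29.1, 20.9, 11.1 and 68.1 in Dox+ and 33.0, 20.6, 251 and 115 in Dox-. On D2.5 the Dox+ array was the lowest of all 9 and the Dox- array the highest, and on D3.5 the difference was 0.64. The late difference did not pass (1.97 ± 0.53, SE, 2 days; limma adjusted p = 0.0738), and passed without the D3.5 pair (adjusted p = 0.00535). The other 3 probe sets gave 2.04, 1.66 and 1.70.

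Plxnb1, the receptor of Sema4d, read 19.2 in undifferentiated cells, 51.6, 70.7, 83.4 and 136 in Dox+ and 59.2, 135, 94.4 and 85.8 in Dox-. Its highest values came on D3.5 in Dox+ and on D1.5 in Dox-, and neither test passed. A second probe set of Plxnb1 was highest on D2.5 in Dox+, at 86.2, with 58.9 on D3.5, and on D1.5 in Dox-, at 86.3. Plxna1, a partner of neuropilins, ranged only from 77.3 to 123.5, with a late difference of 0.09 ± 0.17. Plxna3, Plxna4, Plxnb3 and Plxnc1 missed the filter.

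**Figure D3:**
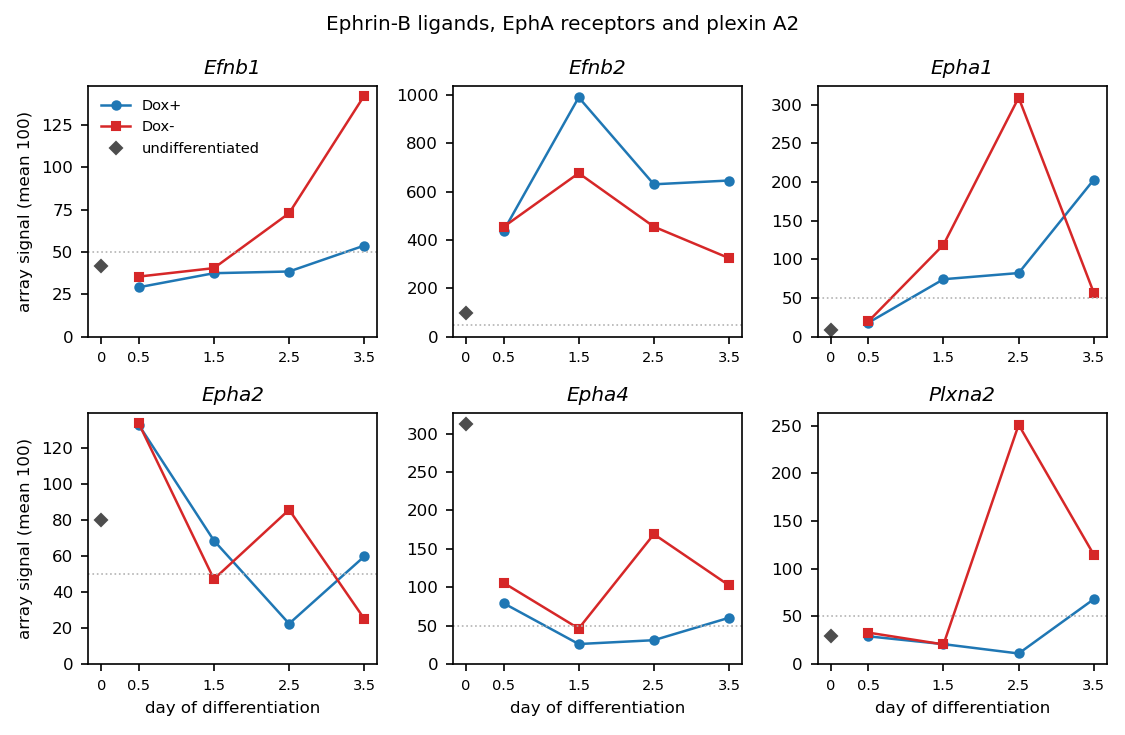
Array signal (scaled to a mean of 100, axis from 0) against day of differentiation for Efnb1, Efnb2, Epha1, Epha2, Epha4 and Plxna2, with 1 array per point, blue circles for Dox+, red squares for Dox-, a grey diamond for undifferentiated cells (at 0) and a dotted line at 50. The Dox- array of D2.5 is the highest of the 4 Dox- arrays for Epha1, Epha4 and Plxna2, and Efnb2 is already at 437 and 454 on D0.5.

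Set side by side by day, no guidance gene was 2-fold apart on D0.5, and most of the large differences lay on D2.5. On D0.5, 0 of 30 members were at least 2-fold apart, against 0.0918% of all tested genes higher and 0.0229% lower. On D1.5, 4 members were at least 2-fold higher in Dox- (Nrp1, Nrp2, Plxnd1 and Flt1; 1.33% of all genes) and 0 lower (1.42%). On D2.5, 12 were higher (3.41% of all genes) and 2 lower, Sema3c and Sema4a (4.45%). On D3.5, 5 were higher (4.13%), namely both neuropilins, Plxnd1, Efnb1 and Ephb3, and 3 lower, Epha1, Sema3c and Sema6a (4.80%). Over all 60 genes, dim ones included, the numbers on D2.5 were the same 12 and 2, and on D3.5 they were 7 and 3. The share over all genes without the filter was not computed. Differences of the added, dim genes come out too small, so these counts are no check on the filter. The median difference of the 30 members was 0.03, 0.34, 0.64 and 0.19 on the 4 days, and that of all tested genes was within 0.04 of 0 on each. Over all 60 genes, with no filter, the medians were 0.00, 0.07, 0.15 and 0.10.

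**Figure D4:**
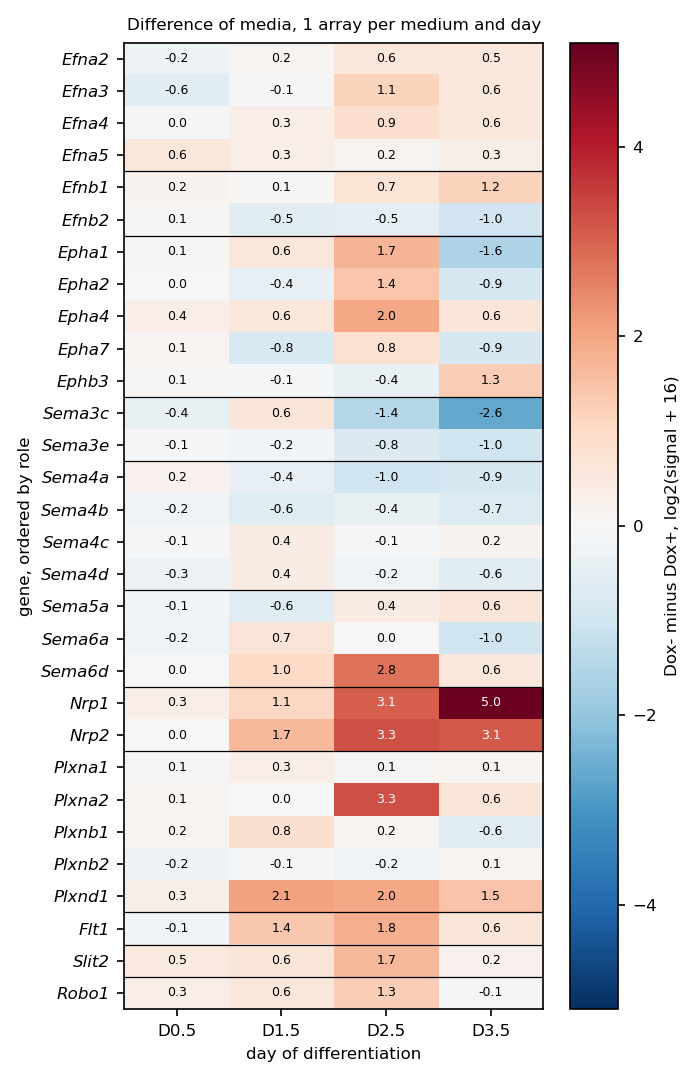
Dox- minus Dox+ difference on the log2(signal + 16) scale for the 30 guidance genes (rows, ordered by role) on the 4 days (columns), each cell being 1 array against 1 array, red for higher in Dox- and blue for lower. The D0.5 column is near 0, the neuropilin rows reach 5.0 and 3.26, and Epha1 turns from 1.73 on D2.5 to -1.59 on D3.5.

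In the late test, with 1 media difference for D2.5 and D3.5 together, 6 of 30 members were called, 3 higher in Dox- (Nrp1, Nrp2 and Efnb1) and 3 lower (Sema3c, Sema3e and Sema4a). Of all 8716 tested genes 7.18% were called, 2.83% higher and 4.35% lower. By role, both neuropilins rose, both class 3 semaphorins fell, 1 of 4 class 4 semaphorins fell and 1 of 2 B ephrins rose, while 0 of 5 Eph receptors, 0 of 5 plexins and 0 of 4 A ephrins passed. The late arrays of the media did not overlap for 19 members, 14 higher and 5 lower in Dox-, but for 52.5% of all tested genes the same held, so this count says little. The median late difference was 0.35 for members and 0.01 for all genes. Without the D0.5 pair 2 members were called, Nrp1 and Nrp2, and without the D3.5 pair 6 were called, all higher (Nrp1, Epha1, Epha2, Epha4, Plxna2 and Sema6d). This comparison was chosen with earlier results of these data known, so its p-values describe these arrays.

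Over all 4 days, with the day as a block, 0 of 30 members passed in limma, as did 0% of all genes, and 12 members had an unadjusted p under 0.05 (11.8% of all genes did). The fitted differences of Nrp1, Nrp2 and Plxnd1 were 2.36 ± 0.75, 2.01 ± 0.54 and 1.45 ± 0.34 (SE, 4 days; limma adjusted p = 0.416 each). Nor was a steady change of the media difference with the day called for any member (0% of all genes), with 5 members at an unadjusted p under 0.05 against 8.44% of all genes. For Nrp1 that change was 1.60 ± 0.26 per day (SE, 8 arrays; limma adjusted p = 0.367).

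From D0.5 to D3.5, with both media together, 9 of 30 members were called, 7 higher on D3.5 (Efna5, Efnb1, Flt1, Plxnb2, Sema4c, Sema5a and Slit2) and 2 lower (Sema4a and Sema4b). Of all tested genes 22.0% were called, 11.8% higher and 10.2% lower. The median change was 0.91 for members and 0.02 for all genes, a difference that the filter can add to, since a dim gene passes by rising. Nrp1 and Nrp2 were not called here (adjusted p = 0.0855 and 0.0550), in a fit with 1 change shared by both media, where theirs were 0.74 and 1.09 in Dox+ and 5.41 and 4.21 in Dox-. The count was 5 without the D1.5 pair (Efna5, Sema4a, Sema4b, Sema4c and Sema5a) and 14 at a pseudocount of 1.

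Against undifferentiated cells, 14 members were at least 2-fold higher on the D3.5 array of Dox+ (11.1% of all genes) and 3 lower (6.34%), and 19 were higher on that of Dox- (12.7%) and 4 lower (8.86%). These compare single arrays and carry no test. Within the earliest 0.5 days Efnb2, Sema3e and Sema4c were at least 2-fold higher in Dox+ (1.43% of all genes) and Epha4 and Sema4a lower (1.30%). In Dox- 3 were higher (1.57%; Efnb2, Sema3e and Plxnb1, the last only from 42.3 to 61.5 on a second probe set) and 1 lower (1.30%; Epha4). There Efnb2, Sema3e and Sema4c differed from undifferentiated cells by 2.04, 1.80 and 0.94, and Epha4 by -1.43. Between the D0.5 and D3.5 arrays of 1 medium, 10 members were higher (8.33%) and 2 lower (5.20%) in Dox+, and 16 higher (11.0%) and 3 lower (8.20%) in Dox-.

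**Figure D5:**
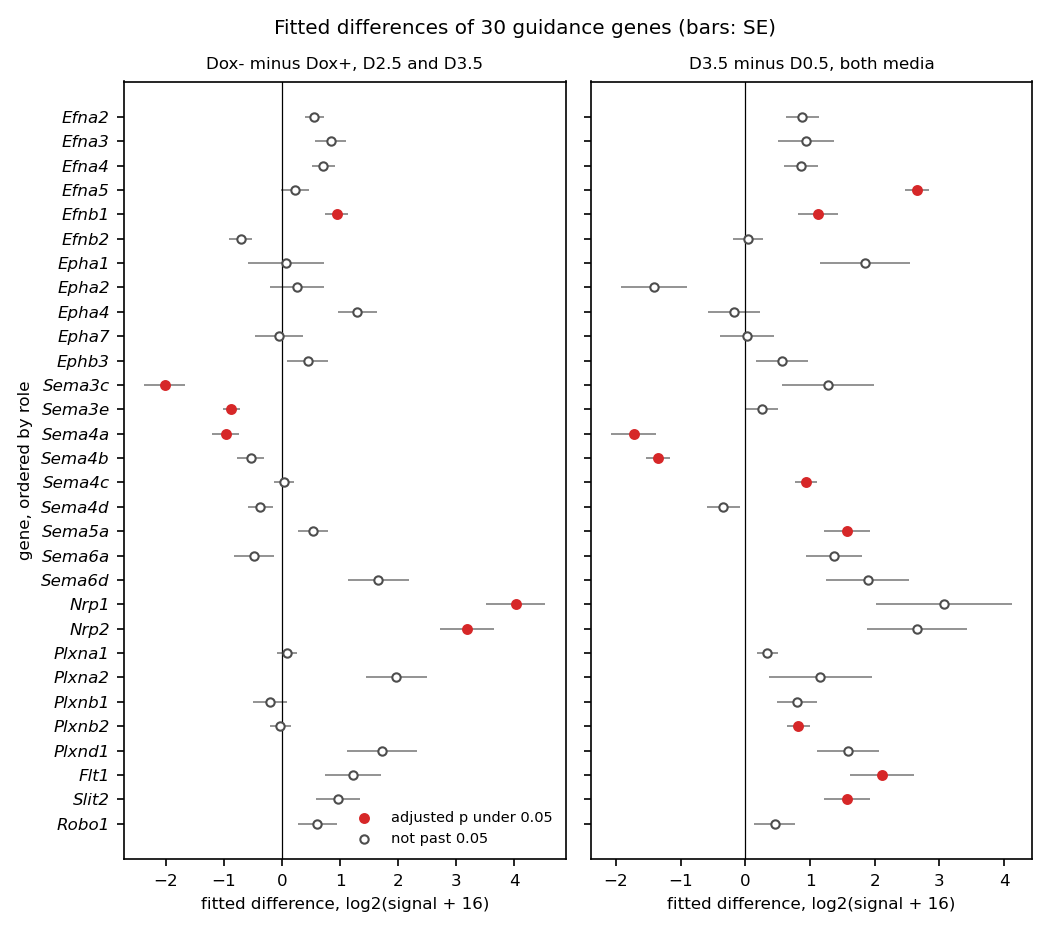
Fitted differences of the 30 guidance genes on the log2(signal + 16) scale, with bars of 1 SE, for Dox- minus Dox+ on D2.5 and D3.5 (left) and for D3.5 minus D0.5 over both media (right), filled red where limma's adjusted p over 8716 genes is under 0.05. Nrp1 and Nrp2 lie furthest to the right on the left side, at 4.03 and 3.19, and Efna5 has the smallest p on the right side, at 2.65.

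Of 74 further genes of guidance pathways, a list chosen with earlier results known, 44 passed the signal filter, and in the late test 5 were called higher in Dox- and 1 lower (2.83% and 4.35% of all tested genes were). Kdr, the VEGF receptor that works with Nrp1, had D3.5 signals of 21.1 (Dox+) and 483 (Dox-), with a late difference of 3.88 ± 0.58 (limma adjusted p = 0.0120). Cxcr4, the receptor of the chemokine Cxcl12, read 11.0 and 244 (2.71 ± 0.33; adjusted p = 0.00703), while Cxcl12 itself read 441 and 123 (-0.89 ± 0.35; adjusted p = 0.175). Flrt3, a membrane protein that binds netrin receptors of the Unc5 family, differed by 1.63 ± 0.24, Tiam1, an exchange factor for Rac, by 1.11 ± 0.17, and Ptk7, a polarity co-receptor, by 1.01 ± 0.21. Crmp1, a cytoplasmic mediator of semaphorin signals, was the 1 called lower (-1.25 ± 0.16; adjusted p = 0.00839). Of the genes called higher, Kdr, Cxcr4 and Flrt3 passed the signal filter through Dox- arrays alone. The direction of their difference was thus partly set by the filter, and the count called higher is no support for a shared direction.

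From D0.5 to D3.5, 10 of these 44 were called higher and 2 lower, where 11.8% and 10.2% of all tested genes were. Dpysl2, another mediator of semaphorin signals, rose by 2.38 ± 0.26 (limma adjusted p = 0.00479) and ended at 1923 in Dox- and 897 in Dox+. Others called higher were Cxcl12, Unc5b, Farp1, Gpc1, Ptk7, Vegfb, Rras, Nck2 and Sdc1, and the actin regulators Enah and Limk1 were lower. The largest single-day differences of the list were on D3.5, in a pair of genes that reached 50 on that Dox- array alone and so entered no test. Unc5c, a netrin receptor, read 623 in Dox- and 15.3 in Dox+ (4.35), and Ackr3, the second receptor of Cxcl12, 619 and 14.7 (4.37). Vegfc, the ligand that Nrp2 helps to bind, read 458 and 79.9 on D3.5 (2.31), with no call in the late test (1.34 ± 0.43; limma adjusted p = 0.112). Ntn1, which encodes netrin 1, was higher in Dox- on D2.5 (132 and 17.8; 2.13) and lower a day later (8.6 and 51.2; -1.45).

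Near the filter value, Sema6a, Sema5a and Efna3 passed with a second-highest signal of 50.8, 53.0 and 58.2. Sema3f, Plxna3 and Ephb4 missed it with 48.9, 48.6 and 47.5. Of the 30 genes that missed it, 26 reached 50 on no array and 4 on 1 array. They were Efna1, Efnb3, Epha3, Epha5, Epha6, Epha8, Epha10, Ephb1, Ephb4, Ephb6, Plxna3, Plxna4, Plxna4os1, Plxnb3, Plxnc1, Robo2, Robo3, Robo4, Sema3a, Sema3b, Sema3d, Sema3f, Sema3g, Sema4f, Sema4g, Sema5b, Sema6b, Sema6c, Slit1 and Slit3. Of the 30 that passed, Efnb2, Plxna1 and Robo1 were at 50 or more on all 9 arrays.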

How the data were processed

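For 9 arrays the authors deposited linear intensity values of 45101 probe sets, which GCOS (Affymetrix's software, version not given) produced per the submitters' processing notes. With 2% cut at either end these intensities averaged 100 on all arrays, so none was normalized again. Of the probe sets, 34945 have 1 gene symbol, 932 several and 9224 none here, and 34741 were updated by gene ID through the RefSeq gene table. The brightest probe set stood for each of 18193 genes, and log2(signal + 16) of 8716 genes was fitted with limma 3.58.1 (R 4.3.3; lmFit, eBayes with a mean-variance trend) to the 8 differentiating arrays. The fits were medium with the day as a block, also used for days, 1 late media difference (D2.5 with D3.5), and the product of medium and day, with 3, 3 and 4 residual degrees of freedom. P-values were adjusted over all genes (Benjamini-Hochberg, 5%). The fits were tested on simulated data. Alternatives covered pseudocount, filter, normalization, probe sets, trend, blocks and each day left out. Genes given in full were Nrp1, Nrp2, Plxnd1, Flt1, called members, and members 4-fold apart between media on a day or between D3.5 and undifferentiated cells. A few others, Epha2 and Robo1 among them, were chosen after their values were seen. Other pathway genes are named if called or 4-fold apart, and Cxcl12 in the late test beside its receptor. Members and lists were chosen with earlier results of these data known. The number of arrays limits the precision.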

Additional observations from a re-analysis of the deposited data

Results flagged for a closer look

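On its brightest probe set Epha1 had media differences of opposite sign on successive days, 1.73 on D2.5 and -1.59 on D3.5. Each came from 1 array per medium, and the change between these days was not tested. Some genes that missed the signal filter, and so entered no comparison, were above 50 on 1 array. Efna1 read 155.5 and Efnb3 198.1 on the Dox- array of D3.5, against 9.7 and 20.1 in undifferentiated cells. Plxna3 read 53.2 on the Dox+ array of D3.5 and Sema3f 51.4 on the Dox- array of D3.5, close to their next highest values of 48.6 and 48.9. Groups of 1 array have no replicates to set an array against.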

How the results depend on the processing

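No gene called in the late test or between D0.5 and D3.5 changed direction under the alternatives run. Epha1, Epha2 and Ephb3, called only with 1 late day left out, had opposite signs on the late days. Nrp1 kept its late call under all 12 (adjusted p 0.00326 to 0.0339). When each day's pair was left out in turn, the late test called 2 to 8 members, 2 to 6 higher in Dox- and 0 to 4 lower, with 0 lower without D0.5 and without D3.5. The change from D0.5 to D3.5 then gave 5 to 10, of which 3 to 7 higher. It gave 14 at a pseudocount of 1 (12 higher), 4 at a signal of at least 100 (3 higher and 1 lower), and 4 higher with no medium as a block. For single days, a pseudocount of 1 gave 3 members 2-fold higher and 2 lower on D0.5, 1 lower on D1.5 and 7 lower on D3.5, more than the 5 higher there. A pseudocount of 64 gave 0 higher on D1.5, 0 lower on D2.5 and 2 higher on D3.5, and against undifferentiated cells 8 higher on D3.5 in Dox+ and 10 in Dox-. A signal of at least 100 gave 2 higher on D1.5, 1 lower on D2.5 and 2 higher on D3.5, and 9 and 11 higher than undifferentiated cells in Dox+ and Dox-. With no signal filter 5 were lower than undifferentiated cells in Dox+, and quantile normalization gave 5 lower on D3.5. The mean of all probe sets gave 2 higher on D1.5, 1 lower on D2.5, 1 lower on D3.5 and 9 higher than undifferentiated cells in Dox+. The stricter filter tests fewer members; for other settings the cause was not tested. Arrays of the same day were paired through the day as a block in the fits, and without that block 0 members were called over 4 days, as with it. Replicate numbers, which the labels do not give, paired nothing. With 1 array per group, spread is known only across days or media, and probe sets under a signal of 50 have values close to background.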
